A study of Mus musculus with 6 samples.

Results

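The genes described here encode the aminoacyl-tRNA synthetases, the enzymes that load each transfer RNA with its amino acid. They are 36 of 29072 genes in the deposited table: 20 whose products work in the cytosol and 16 whose names end in 2 and whose products work in mitochondria. They were picked by symbol, with earlier results of these data known. All 36 passed the filter on low values. The filter asked for a group mean of 1 RPKM or more in knockout or wildtype and left 11541 genes. RPKM is the number of reads scaled by transcript length and library depth, so levels of different genes can be set side by side. RNA came from interscapular brown fat, the heat-producing depot between the shoulder blades, of mice on the C57BL/6J strain. A group of 3 libraries came from UCP1(-/-) mice, which carry a disrupted gene for the uncoupling protein of brown fat mitochondria, and a group of 3 came from wildtype mice. Both groups share the strain, the tissue, the snap-freezing and the library kit. The labels give no age, sex, housing temperature or time of collection, and do not say how the allele was made or that each library is a separate animal, so each p-value reflects only how these libraries scatter, which may be technical.

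Every amino acid used in protein synthesis must first be joined to its own transfer RNA, and cells keep separate sets of synthetases for the ribosomes of the cytosol and those of mitochondria, all encoded in the nucleus. The enzymes fall into 2 structural classes with unrelated catalytic domains, class I and class II. In the cytosol of animals several synthetases are held in a multisynthetase complex by scaffold proteins, while others stand alone. Gars and Kars supply both compartments from a single gene. Glutamyl- and prolyl-tRNA are made in the cytosol by the fused enzyme of Eprs, and phenylalanyl-tRNA by a protein with different subunits, encoded by Farsa and Farsb. Many cytosolic synthetase genes are known targets of ATF4, the transcription factor of the integrated stress response, which is made when initiation factor eIF2 is phosphorylated.

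The spacing of low values implied 15800000 to 18000000 reads per library. Ucp1 stood at 375, 389 and 372 RPKM in the knockout libraries and at 3096, 1714 and 3150.5 RPKM in the wildtype libraries, lower in each knockout library than in any wildtype library, with wildtype replicate 2 below the other two wildtype libraries. Of 14 brown adipocyte markers, 1 rose and 2 fell, where 7.00% of all tested genes were called higher and 0.745% lower. Elovl3 rose (log2 change 0.92, limma adjusted p = 0.0403). Ucp1 and Prdm16 fell, Prdm16 with a log2 change of -0.49 (limma adjusted p = 0.0382). The other 11 did not pass, among them Cidea, a lipid droplet protein of brown adipocytes, at 1264 to 1427 RPKM in every library. All 20 skeletal muscle markers rose, and they summed to between 1897 and 2140.5 RPKM per knockout library and between 66.2 and 315 RPKM per wildtype library. Of 11 macrophage markers 1 rose, with sums of 78.6 to 108.1 RPKM in knockout and 49.5 to 78.01 RPKM in wildtype, and of 7 endothelial markers none passed limma's test. In bulk tissue, more or fewer cells of a type and more or less RNA per cell cannot be told apart.

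In Ucp1-knockout brown fat 11 of the 20 cytosolic synthetase genes rose and none fell. The other 9 did not pass an adjusted p of 0.05 in limma, with Benjamini-Hochberg adjustment across the 11541 genes tested. The share of all tested genes called higher was 7.00%, and 0.745% were called lower. None of the 16 mitochondrial genes passed limma's test in either direction, against 7.75% of all tested genes. With that share, a count of 0 among 16 genes is near the background. An unadjusted p under 0.05 was found for 16 of 20 cytosolic and 3 of 16 mitochondrial genes, and for 23.6% of all tested genes. The median log2 change was 0.45 over the cytosolic genes, 0.01 over the mitochondrial genes and 0.08 over all tested genes. The change was above 0 for all 20 cytosolic and 9 of 16 mitochondrial genes, and for 68.6% of all tested genes. The lowest knockout library lay above the highest wildtype library for 18 of 20 cytosolic genes and for 1 of 16 mitochondrial genes, against 24.3% of all tested genes. After scaling the libraries by the median of ratios, which moved the median of all genes to -0.01, the same 11 cytosolic genes passed, and 4.26% of all genes were called higher and 1.33% lower. The groups then stood apart in that direction for 16 cytosolic and 0 mitochondrial genes, against 14.1% of all genes. Whether the classes differ was not tested, since the genes of a class are not replicates.

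The count of 11 was also 11 with a pseudocount of 0.1, without a filter, with a filter of 5 RPKM, with the row of highest mean and without an intensity trend. The shares of all genes called higher were then 6.62%, 3.35%, 5.64%, 5.43% and 6.72%, in that order. With the rows of a gene summed, 12 cytosolic genes and 6.95% of all genes were called higher. Leaving out knockout replicate 1, 2 or 3 gave 10, 11 and 10 cytosolic genes, against 3.81%, 3.61% and 4.71% of all genes. Leaving out wildtype replicate 1, 2 or 3 gave 11 each time, against 4.71%, 6.49% and 5.84%.

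**Figure D1:**
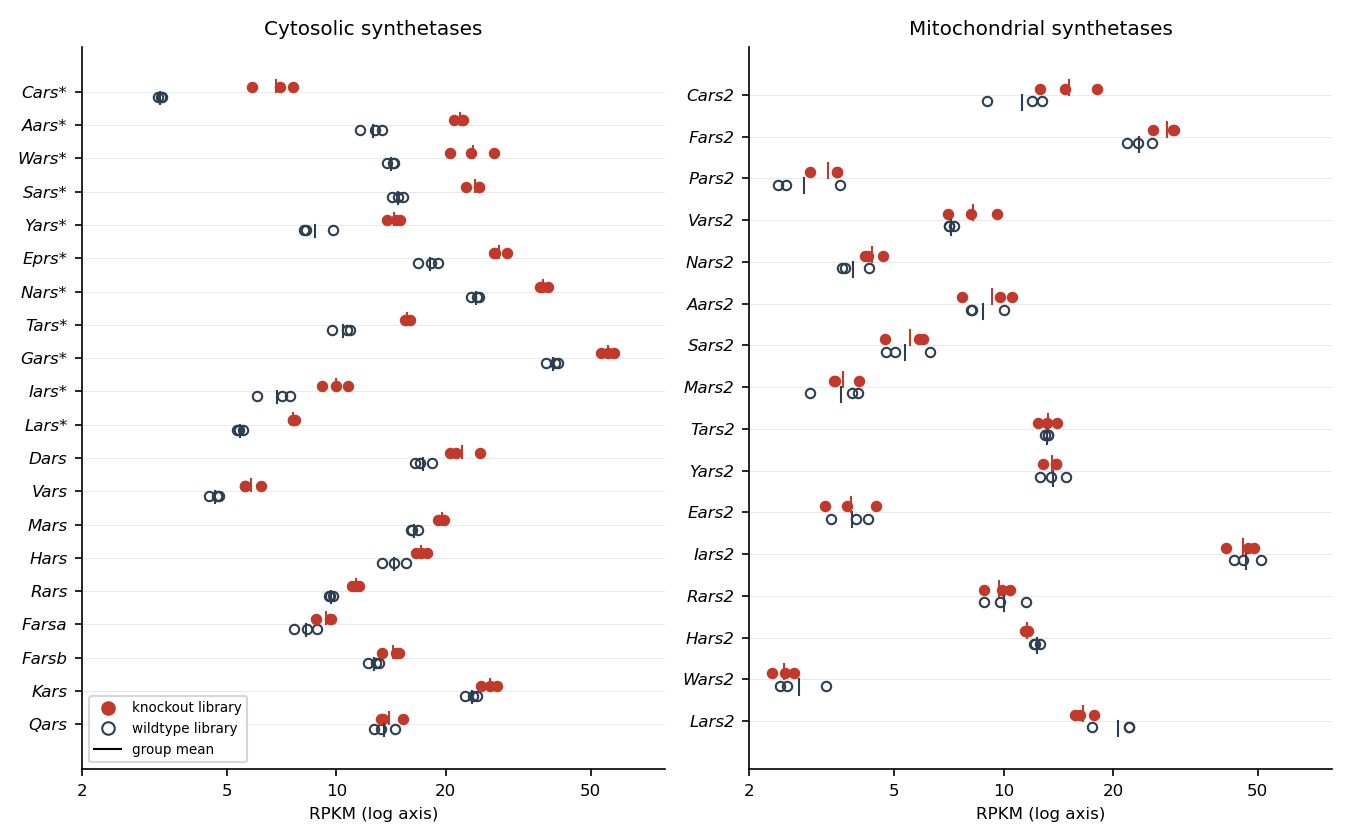
RPKM of every synthetase gene in each library (log axis), with filled circles for the 3 knockout libraries, open circles for the 3 wildtype libraries, short vertical lines for group means and an asterisk for genes that passed. The 11 cytosolic genes with an asterisk have all knockout libraries to the right of all wildtype libraries, while most mitochondrial genes overlap.

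Among the cytosolic enzymes that are not part of the multisynthetase complex, 8 of 12 rose, where 7.00% of all tested genes were called higher. Cars, which charges cysteine, had the largest ratio of group means of the 36 genes. It stood at 6.99, 7.59 and 5.88 RPKM in the knockout libraries and at 3.29, 3.31 and 3.23 RPKM in the wildtype libraries. The knockout mean was 2.08-fold the wildtype mean, with a log2 change of 0.86 (SE 0.10, limma adjusted p = 0.00126). The wildtype libraries were nearly level, and each knockout library exceeded all of them. Aars, the alanine enzyme, was at 22.3, 22.1 and 21.04 RPKM in knockout and at 12.8, 11.6 and 13.4 RPKM in wildtype. Its log2 change was 0.75 (SE 0.08, limma adjusted p = 0.000949), the smallest adjusted p of the family. Sars, the serine enzyme, was at 22.7, 24.7 and 24.7 RPKM in knockout and at 14.8, 14.2 and 15.2 RPKM in wildtype, a log2 change of 0.67 (SE 0.07, limma adjusted p = 0.00108). Serine also feeds one-carbon metabolism and glycine synthesis. Wars, the tryptophan enzyme, which is also known as an interferon-induced gene, was at 20.5, 27.1 and 23.4 RPKM in knockout and at 14.4, 14.3 and 13.8 RPKM in wildtype. Its spread in the knockout group (SD 3.33, n = 3) was wider than in wildtype (SD 0.31, n = 3), and the log2 change was 0.70 (SE 0.10, limma adjusted p = 0.00417).

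The tyrosine enzyme gene Yars was at 14.9, 13.8 and 14.6 RPKM in knockout and at 8.16, 8.25 and 9.82 RPKM in wildtype, a log2 change of 0.67 (SE 0.09, limma adjusted p = 0.00253). Nars, which charges asparagine, was at 38.2, 36.2 and 36.7 RPKM in knockout and at 24.7, 24.3 and 23.5 RPKM in wildtype, a log2 change of 0.60 (SE 0.07, limma adjusted p = 0.00126). In both genes the highest wildtype library stayed well under the lowest knockout library. Tars, the threonine enzyme, was at 15.96, 15.4 and 15.5 RPKM in knockout and at 10.9, 9.72 and 10.7 RPKM in wildtype, a log2 change of 0.54 (SE 0.07, limma adjusted p = 0.00299). Gars, the glycine enzyme of both compartments, was at 53.3, 55.97 and 57.8 RPKM in knockout and at 40.6, 37.6 and 39.8 RPKM in wildtype, a log2 change of 0.49 (SE 0.07, limma adjusted p = 0.00384). Gars was the most abundant cytosolic synthetase in both groups.

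Of the 8 enzymes of the multisynthetase complex 3 rose, against 7.00% of all tested genes called higher. Eprs was at 27.2, 29.4 and 27.4 RPKM in knockout and at 18.3, 19.1 and 16.8 RPKM in wildtype, a log2 change of 0.61 (SE 0.08, limma adjusted p = 0.00211). Lars, the leucine enzyme, was at 7.58, 7.71 and 7.59 RPKM in knockout and at 5.55, 5.39 and 5.33 RPKM in wildtype, a log2 change of 0.43 (SE 0.07, limma adjusted p = 0.00706). For Lars the groups were separated by far more than the spread within either. Iars, the isoleucine enzyme, was at 10.8, 9.14 and 9.97 RPKM in knockout and at 7.44, 6.05 and 7.09 RPKM in wildtype, a log2 change of 0.48 (SE 0.10, limma adjusted p = 0.0196). Iars was the only one of the 11 whose call was lost in any alternative: without knockout replicate 1 the adjusted p was 0.0826, and without knockout replicate 3 it was 0.062.

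The 9 cytosolic genes that did not pass had ratios of knockout to wildtype means of 1.03 to 1.28. Dars, the aspartate enzyme of the complex, had the smallest p among them. It was at 24.8, 21.3 and 20.5 RPKM in knockout and at 17.03, 18.4 and 16.5 RPKM in wildtype, with a log2 change of 0.34 (95% interval 0.14 to 0.54, limma adjusted p = 0.0561). Mars (methionine), Vars (valine), Rars (arginine) and Hars (histidine) had log2 changes of 0.24, 0.27, 0.21 and 0.23, with limma adjusted p-values of 0.0600, 0.0695, 0.0999 and 0.114. In each of these 5 genes, and in Farsb and Kars, every knockout library lay above every wildtype library, as in 24.3% of all tested genes. After median-of-ratios scaling this held for the 5 genes, against 14.1% of all genes. The groups of Farsb and Kars then overlapped, with log2 changes of 0.07 and 0.06. Farsa and Farsb, which encode the subunits of the phenylalanine enzyme, had the same log2 change of 0.16 (limma adjusted p = 0.266 and 0.235). Kars, the lysine enzyme of both compartments, had a log2 change of 0.15 (limma adjusted p = 0.237). Qars, the glutamine enzyme, had the smallest change of the class, 0.04 (95% interval -0.15 to 0.23, limma adjusted p = 0.808), and its groups overlapped. With libraries scaled by the median of ratios, Qars was the 1 cytosolic gene with a negative change. By structural class, 6 of 10 class I and 5 of 10 class II cytosolic genes rose, against 7.00% of all tested genes called higher. The median log2 changes of these classes were 0.45 and 0.42. The median was 0.29 for the 8 genes of the complex and 0.57 for the 12 outside it; a difference between them was not tested.

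Most mitochondrial enzymes had close group means. The ratio of group means lay between 0.804 and 1.35, and for 10 of the 16 genes it was within 10% of 1. Lars2, the mitochondrial leucine enzyme, had the smallest p of the class. It was at 15.7, 17.7 and 16.3 RPKM in knockout and at 17.6, 22.2 and 22.2 RPKM in wildtype, and the groups overlapped only through knockout replicate 2 and wildtype replicate 1. The log2 change of Lars2 was -0.29 (95% interval -0.53 to -0.06, limma adjusted p = 0.13). Without wildtype replicate 1 it was -0.40 with an adjusted p of 0.0428, the only call on a mitochondrial gene in any alternative, where 0.554% of all genes were called lower. Cars2, the cysteine enzyme, was at 12.6, 14.8 and 18.05 RPKM in knockout and at 11.9, 9.02 and 12.8 RPKM in wildtype, with a log2 change of 0.40 (95% interval 0.05 to 0.74, limma adjusted p = 0.158). Fars2, the single-chain phenylalanine enzyme of mitochondria, was at 29.5, 29.2 and 25.7 RPKM in knockout and at 23.4, 21.9 and 25.6 RPKM in wildtype. It was the 1 mitochondrial gene whose knockout libraries all lay above the wildtype libraries, as in 24.3% of all tested genes. Its log2 change was 0.24 (95% interval 0.04 to 0.44, limma adjusted p = 0.134). After median-of-ratios scaling the groups of Fars2 overlapped, with a log2 change of 0.15.

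Hars2, the histidine enzyme, was the 1 mitochondrial gene with every knockout library below every wildtype library, at 11.5, 11.6 and 11.7 RPKM against 12.6, 12.2 and 12.2 RPKM. Its log2 change was -0.08 (95% interval -0.23 to 0.07, limma adjusted p = 0.495), and 5.14% of all tested genes were separated in this direction. Tars2 was at 13.2 RPKM in both groups, and the 95% interval of its log2 change ran from -0.16 to 0.17. Yars2 and Iars2 had intervals of -0.19 to 0.18 and -0.25 to 0.19. For Ears2, Mars2, Rars2, Sars2 and Aars2 the log2 changes were between -0.04 and 0.07. Vars2, Nars2 and Pars2 had changes of 0.17, 0.15 and 0.18, and Wars2 a change of -0.09, all with overlapping groups. In all, 9 mitochondrial genes had positive and 7 negative changes, and after median-of-ratios scaling 5 were positive and 11 negative. After that scaling Hars2, Lars2 and Wars2 had every knockout library below every wildtype library, against 13.1% of all genes. By structural class the median log2 change was -0.02 for the 9 class I and 0.07 for the 7 class II mitochondrial genes.

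For most amino acids the compartments can be compared directly, because a cytosolic and a mitochondrial gene exist side by side. In 14 of 16 such pairings, which use 15 mitochondrial genes because Fars2 stands against both Farsa and Farsb, the cytosolic log2 change was the larger. The median difference was 0.49. The widest gap was for tryptophan, with 0.70 for Wars and -0.09 for Wars2, followed by leucine with 0.43 for Lars and -0.29 for Lars2. Alanine, tyrosine, serine and the pairing of Eprs with Ears2 each differed by 0.62 to 0.68. Cysteine was the pair in which both genes had their class's largest change, 0.86 for Cars and 0.40 for Cars2. The exceptions were both phenylalanine pairings, where Fars2 exceeded Farsa and Farsb by 0.08 and 0.09, while the 3 changes had an SE of 0.08, 0.07 and 0.09 for Farsa, Farsb and Fars2. These are differences between fitted changes, and no test was made on them.

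**Figure D2:**
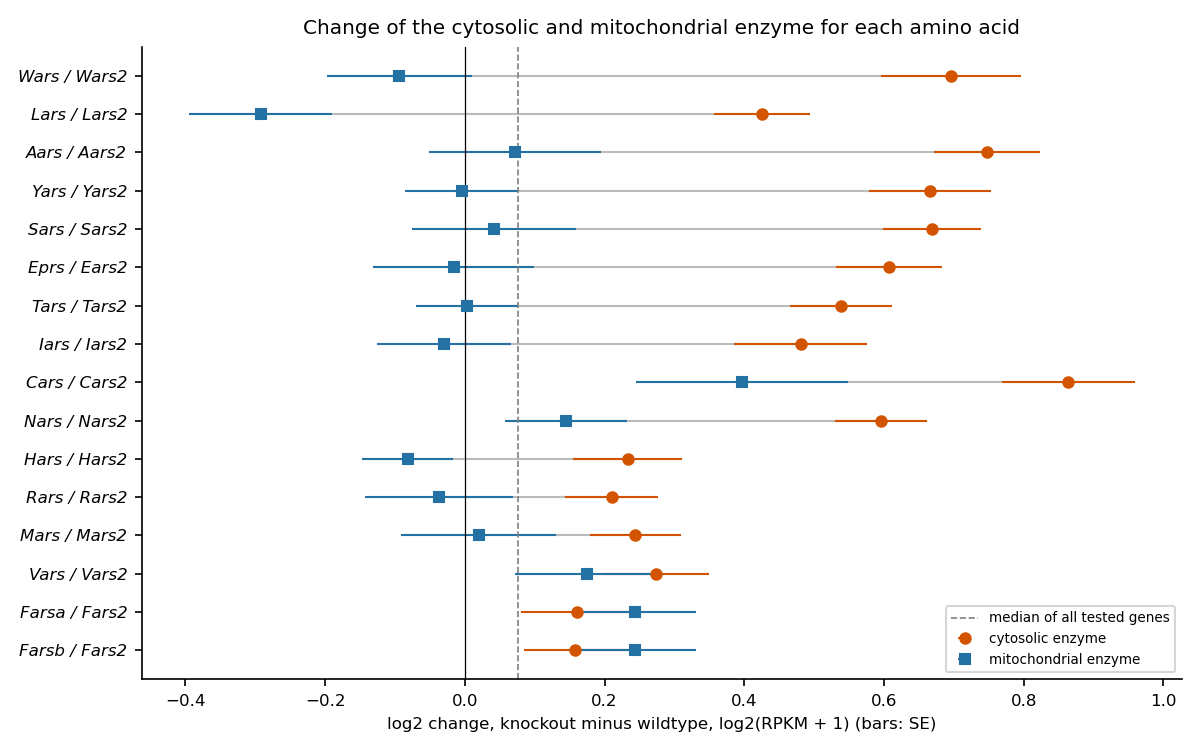
Log2 change (knockout minus wildtype, on log2(RPKM + 1)) of the cytosolic enzyme (orange circles) and the mitochondrial enzyme (blue squares) of each pairing, with bars for the SE and a dashed line at 0.08, the median of all tested genes. Orange lies to the right of blue in 14 of 16 pairings, and only the phenylalanine pairings are the other way round.

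The order of levels mixed the classes. In wildtype brown fat the highest of the 36 genes was the mitochondrial Iars2 at 46.5 ± 4.17 RPKM, followed by Gars at 39.3 ± 1.55, Nars at 24.2 ± 0.614, Fars2 at 23.6 ± 1.86 and Kars at 23.6 ± 0.874 RPKM (SD, n = 3). Nars, Fars2 and Kars differed by less than their spread. The order is that of the row kept for each gene. Other rows of Iars2 had wildtype means of 11.04 to 47.75 RPKM, and its exons overlap those of Rab3gap2. The lowest were Cars at 3.28 ± 0.0456, Pars2 (proline) at 2.83 ± 0.635 and Wars2 at 2.74 ± 0.447 RPKM. Cars, the gene with the largest ratio, was thus also the least abundant cytosolic synthetase. In wildtype the cytosolic gene had the higher level in 7 of the 16 pairings.

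Summed over the 20 cytosolic genes, the level was 381.8, 388 and 384 RPKM in the knockout libraries and 281.6, 276 and 276.8 RPKM in the wildtype libraries. Libraries of a group thus differed by a few RPKM, while the group means of 384.7 ± 3.23 and 278 ± 2.96 RPKM (SD, n = 3) stood 1.38-fold apart. The 16 mitochondrial genes summed to 195, 201.5 and 186 RPKM in knockout and to 181, 184 and 203 RPKM in wildtype, with overlapping groups and means of 194 ± 7.57 and 189 ± 12.1 RPKM. The ratio of the cytosolic to the mitochondrial sum was 1.96, 1.93 and 2.06 in the knockout libraries and 1.56, 1.504 and 1.36 in the wildtype libraries. Muscle RNA moved with genotype in the same libraries. Among the wildtype libraries alone, the summed muscle markers were 275, 315 and 66.2 RPKM, and the cytosolic sum was between 276 and 282 RPKM. Of the 11 genes that rose, 5 had their lowest wildtype value in replicate 3, the library with the least muscle RNA, 5 in replicate 2 and 1 in replicate 1. Without wildtype replicate 3 the 11 genes passed again. The muscle markers summed to 1897 to 2140.5 RPKM in the knockout libraries, outside the wildtype range. Muscle RNA and genotype therefore cannot be told apart here. The part of muscle or macrophage RNA in the knockout values was not tested.

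**Figure D3:**
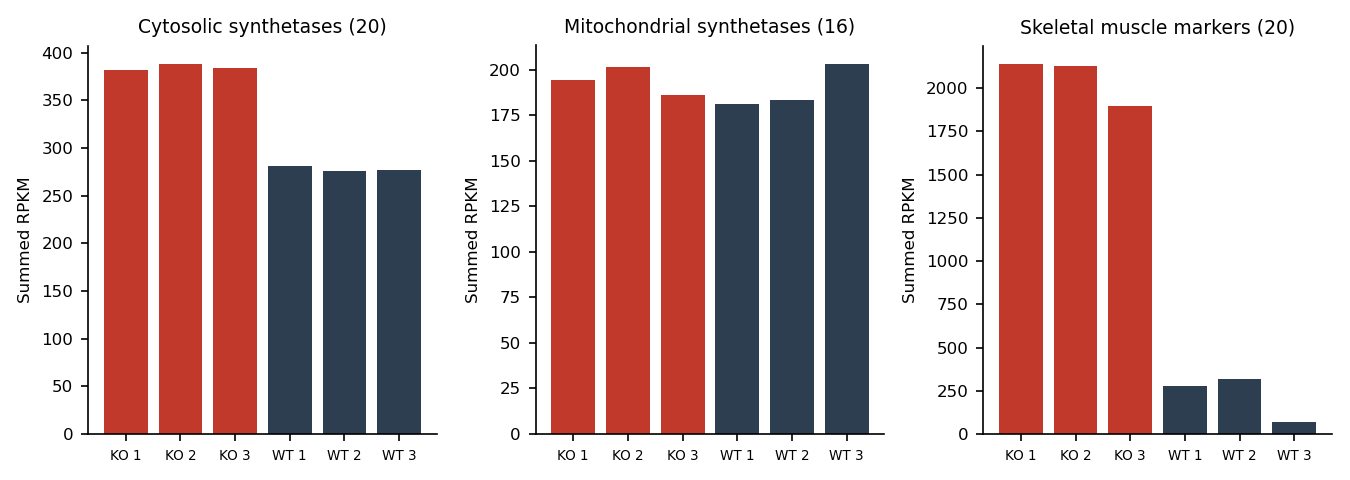
Summed RPKM of the 20 cytosolic synthetases, the 16 mitochondrial synthetases and 20 skeletal muscle markers in each library, with knockout (KO) in red and wildtype (WT) in dark blue. The cytosolic sums are 382 to 388 RPKM in knockout and 276 to 282 RPKM in wildtype, the mitochondrial sums overlap, and the muscle sum of wildtype replicate 3 is far below those of the other wildtype libraries.

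The table lists several transcripts for each gene, 315 rows for the 36 genes, and the values above use 1 RefSeq row per gene. Rows of a gene share reads, so they are not independent, but they show whether the choice of row matters. Of 179 cytosolic rows with a mean of at least 1 RPKM, 139 (77.7%) had every knockout library above every wildtype library and none had the reverse. Of 120 mitochondrial rows, 12 (10%) were above and 7 (5.83%) below. Over all rows with a gene identifier and that mean, 20.8% were above and 4.35% below. The median ratio of knockout to wildtype means was 1.42 over the cytosolic and 1.01 over the mitochondrial rows. The 7 rows below all belonged to Hars2, and the 12 above to Fars2 (5 of 5 rows) and Vars2 (7 of 18 rows). Every such row of Aars, Cars, Gars, Nars, Tars, Wars and Yars was above, as was every one of Farsb and Kars. These rows are unscaled, and scaling made the groups of Farsb, Kars and Fars2 overlap in the row used for each. Of the genes without a call, Vars had 12 of 18 rows above and ratios of 1.075 to 1.57, and it passed when all rows of a gene were summed (limma adjusted p = 0.0337). None of the 18 rows of Qars was above. The rows of Lars2 spread over ratios from 0.782 to 1.14.

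**Figure D4:**
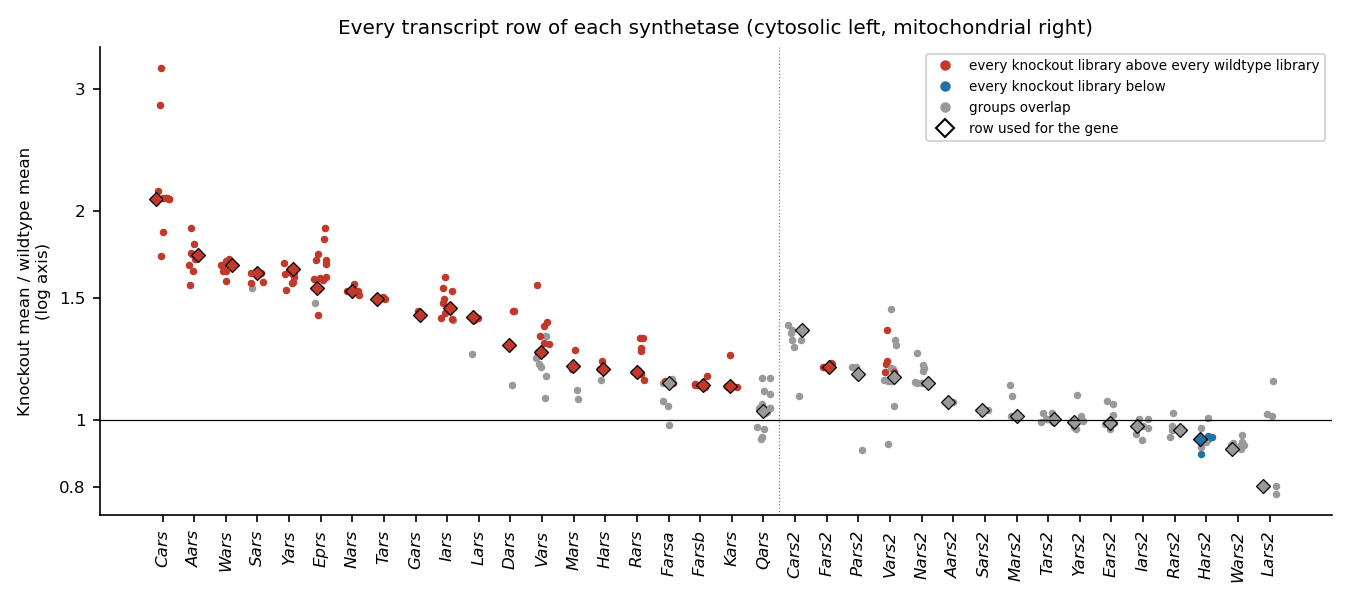
Ratio of the knockout mean to the wildtype mean (log axis) for each transcript row of each synthetase with a mean of at least 1 RPKM, cytosolic genes left of the dotted line and mitochondrial genes right. Red rows have every knockout library above every wildtype library (139 of 179 cytosolic and 12 of 120 mitochondrial rows), blue rows have the reverse, grey rows overlap, and diamonds mark the row used for the gene.

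Some members share exon bases with a neighbouring gene in the GENCODE annotation of GRCm38, and whether the authors' counting used strand is not stated, so reads of these pairs may be mixed. Aars shares 1326 bases with Exosc6 on the same strand, Iars2 shares 2034 with Rab3gap2 on the other strand, Hars and Hars2 share 195 with each other, and Mars shares 68 with Ddit3, itself a gene of the stress response. Of the 11 genes that rose, Aars, Cars and Yars had any such overlap.

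Because many cytosolic synthetase genes are known ATF4 targets, the promoters were searched for its element, with the calls already known. ATF4, paired with a C/EBP factor, binds an element whose core reads TGATGNAA, which was searched on both strands of RefSeq promoters of GRCm38.p6, from 250 bases before to 50 bases after each gene's start. Promoters were matched for 27 of the 36 genes, and 1 gene had more than 1 start. Only 7 of the 11 genes that rose were matched, and the others were not searched. The letters were present for 5 of the 7 matched cytosolic genes that rose, for 0 of the 6 matched cytosolic genes that did not pass and for 0 of 14 matched mitochondrial genes. They were present for 4.51% of all genes with a promoter in the search and for 2.71% of tested genes, or in 3.97% and 2.24% of their promoters. The stretches are shown in the direction of the gene, with the match in capitals. TTGCATCA and TTTCATCA are matches on the opposite strand.
Aars, chr8:111033695-111033772, plus strand, 112 bases before the start: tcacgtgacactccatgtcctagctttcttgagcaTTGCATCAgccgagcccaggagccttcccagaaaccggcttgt
Aars, chr8:111033840-111033869, plus strand, from base 10 after the start: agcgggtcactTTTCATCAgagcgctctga
Gars, chr6:55037936-55038000, plus strand, 30 bases before the start: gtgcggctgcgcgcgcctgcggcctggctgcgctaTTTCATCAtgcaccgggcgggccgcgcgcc
Tars, chr15:11399659-11399708, minus strand, 15 bases before the start: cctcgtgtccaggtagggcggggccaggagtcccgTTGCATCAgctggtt
Iars, chr13:49682126-49682155, plus strand, from base 8 after the start: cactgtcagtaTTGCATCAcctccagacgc
Yars, chr4:129189895-129189924, plus strand, from base 4 after the start: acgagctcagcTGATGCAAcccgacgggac
All the matches lay within 112 bases of the start, and Aars held both spellings. A match is a description of these letters and does not show binding. Whether ATF4 changed any of these genes was not tested. The consensus of NRF1, a factor of many nuclear genes for mitochondria, was searched on both strands too. A shorter form was searched first, matched none of these genes, and was replaced after that result. The form reported was present for none of the matched genes of either class and for 3.41% of tested genes. This says only that these letters are not in the windows searched.

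Genes that work beside the synthetases were read against the 7.75% of all tested genes that passed; the lists are short, and differences between them were not tested. Of the 3 scaffold proteins of the multisynthetase complex 1 rose: Aimp2 was at 8.79, 7.67 and 8.44 RPKM in knockout and at 6.09, 6.42 and 5.31 RPKM in wildtype (log2 change 0.42, limma adjusted p = 0.0254). For Aimp1 and Eef1e1, the other scaffold genes, the groups did not overlap, but they did not pass. Of 5 genes of tRNA maturation and export 1 rose, Xpot, the exporter of tRNA from the nucleus, at 7.38, 8.25 and 9.04 RPKM in knockout and 5.28, 5.99 and 5.79 RPKM in wildtype (log2 change 0.46, limma adjusted p = 0.0184). Of 6 cytosolic elongation factor genes 1 rose, Eef1a2, at 15.5, 14.2 and 13.1 RPKM in knockout and 1.59, 2.05 and 0.511 RPKM in wildtype (log2 change 2.74, limma adjusted p = 0.000477). Eef1a2 is the elongation factor form of muscle and neurons. Its wildtype values ranked as the muscle sum did, over 3 libraries only, and the part of muscle RNA in its change was not tested. Of 9 genes of eIF2, its kinases and phosphatase subunits 2 rose: Ppp1r15a, a stress-induced phosphatase subunit (log2 change 0.46, limma adjusted p = 0.0101), and Eif2s2, the beta subunit of eIF2 (0.44, limma adjusted p = 0.0118).

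None of 10 mitochondrial translation factor genes passed limma's test, and none had an unadjusted p under 0.05. With 7.75% of all tested genes called, a count of 0 in a list of this size is near the background share. Gfm2, a ribosome recycling factor and the gene with the smallest p among them, was at 20.8, 20.4 and 19.5 RPKM in knockout and at 21.5, 23.2 and 22.5 RPKM in wildtype (limma adjusted p = 0.254). None of the 3 subunits of the amidotransferase that makes mitochondrial glutaminyl-tRNA passed, with Qrsl1 the nearest (limma adjusted p = 0.217). Tarsl2, a threonine synthetase gene outside the 36, did not pass (limma adjusted p = 0.318), and neither did Pstk nor Sepsecs, which build selenocysteyl-tRNA. Of all tested genes 7.00% were called higher and 0.745% lower, and their median log2 change was 0.08. Of 16 tested genes of ATF4 and its targets 11 rose and none fell, with a median log2 change of 0.55. Among them Mthfd2, a mitochondrial folate enzyme, and Trib3, a pseudokinase, had log2 changes of 2.38 and 1.20, and Atf5, a transcription factor of the same response, of 1.26 (limma adjusted p = 0.000489, 0.00116 and 0.00133). These changes are larger than that of any synthetase. The 5 genes of the list that did not pass were Cebpg, Ddit4, Sesn2, Cebpb and Ddit3. Their log2 changes were 0.28, -0.20, 0.13, 0.08 and 0.03, in that order.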

How the data were processed

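Total RNA was sequenced after TruSeq RNA v2 library preparation, per the labels' protocols. CASAVA and bcl2fastq are named in the submitters' processing notes. Which aligner, build or gene models were used is not given in the sources. The authors deposited RPKM for 168326 transcript rows. No header names the unit, which was worked out from the values: 95.8% to 96.2% of low products of value and Ensembl transcript length were whole reads within 0.1. These lengths were not matched to the RefSeq rows used, so no counting interval is given per gene. Rows without a gene identifier (13.8%) were left out. A single row was kept per gene: RefSeq NM or NR rows first, then Ensembl rows, then others, and the highest mean within a kind.

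Values were transformed to log2(RPKM + 1), which understates changes of low genes, and genes whose mean reached 1 RPKM in knockout or wildtype were tested with limma 3.58.1 in R 4.3.3, with an intensity trend and a single genotype term. Two-sided p-values were adjusted by Benjamini-Hochberg over all 11541 genes, with a threshold of 0.05. The limma fit was tested on simulated counts with equal depth and with rises and falls equally likely, unlike these data. That run checks the code only and gives no error rate for these libraries. The members, gene lists and tests were chosen with earlier results of these data known. All 36 members could be named, and called members are given with every library. From each pathway list up to 3 called genes with the smallest adjusted p are named, or the 1 with the smallest p. Aimp1, Eef1e1, Sepsecs, Cidea, Cebpg, Ddit4, Sesn2, Cebpb and Ddit3 were named outside that rule. Alternatives changed scaling, pseudocount (0.1), filter (none, or 5 RPKM), row choice, model and replicates. No library duplicated another. Promoter sequences are RefSeq's (GRCm38.p6) and exon overlaps come from GENCODE; neither is tied to the authors' build.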

Additional observations from a re-analysis of the deposited data

How the results depend on the processing

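The count of 11 higher cytosolic and 0 called mitochondrial genes was the same with median-of-ratios scaling, a pseudocount of 0.1, no filter, a filter of 5 RPKM, the row of highest mean and no intensity trend. Summing rows gave 12 cytosolic genes, the same 11 and Vars. Leaving out each library gave 10 to 11 cytosolic and 0 to 1 mitochondrial genes. The median log2 change of the cytosolic genes was 0.37 after median-of-ratios scaling, 0.49 with a pseudocount of 0.1, 0.49 with rows summed, and 0.41 to 0.48 when leaving out each library; that of all tested genes was -0.01 after the scaling. The scaling put the mitochondrial median at -0.07. Of all tested genes, 894 passed, 452 with the filter of 5 RPKM, in which fewer genes were tested, and 457 to 850 when leaving out each library. No change of a called gene reversed. The replicate numbers only name the libraries: deviations of same-numbered libraries correlated at -0.0183 to 0.0892, and not every library correlated best with its own number. With the replicate number as a block, 11 cytosolic and 0 mitochondrial genes passed, with medians of 0.45 and 0.01, and 778 of all genes. The number of libraries, 3 per group, and changes near the spread limit what can be called. The separation of groups after scaling was added after seeing the data. No group held enough libraries for a search for outlying ones.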
